A study of Mus musculus with 2 samples.

Results

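Phosphodiesterases break down the cyclic nucleotides cAMP and cGMP, and 10 of their genes were described here in cells of the mouse right ventricle: Pde1a, Pde1c, Pde3a, Pde3b, Pde4b, Pde4d, Pde5a, Pde7b, Pde8b and Pde10a. They were taken from 25 genes listed by phosphodiesterase symbol in a table of 27999 features. What the product of each listed gene cleaves was not checked. The 10 genes had been selected on their measured levels by cell type and by GFP in these same libraries. Their levels by cell type, and with and without a GFP transcript, are therefore given as a description with no test. Tests were run only on other genes of cyclic nucleotide signalling.

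The samples were 2 libraries of 1 group, with no control sample. The C57/BL6J pups were flox/flox for CBP, for p300 and for Trap, received AAV9 at postnatal day 1 as p300/CBP knockout, and were 21 days old at harvest. Every cell described thus comes from the treated group, the labels do not say which promoter drove recombination, which cells were reached or how many pups went into a library, and no statement about the knockout can be drawn. The p-values below rest on how far differences between classes, or between GFP groups, varied between these 2 libraries. Each library's own level was fitted as a block and is not part of that spread, some of which may be technical.

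Cyclic nucleotides carry hormone and nitric oxide signals inside the cell: adenylyl cyclases make cAMP, which acts through protein kinase A, Epac and Popeye proteins, and guanylyl cyclases make cGMP, which acts through protein kinase G. In cardiac muscle cAMP raises calcium cycling and the force of the beat, and in vascular mural cells both messengers relax contraction. Phosphodiesterase families differ in what they cleave and in what controls them. PDE1 enzymes are switched on by calcium and calmodulin and cleave both nucleotides, PDE3 enzymes cleave cAMP and are inhibited by cGMP, PDE4, PDE7 and PDE8 enzymes are specific for cAMP, PDE5 for cGMP, and PDE10 cleaves both.

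Promoter windows are shown for Pde4d and Pde4b, which were both highest in cardiomyocyte-like cells, and for Pde5a and Pde8b. Among the compared cell classes both of the latter were highest in pericyte-like cells, but their levels in other cells differed, as given below. The DNA at starts of genes with the same highest compared class can thus be read side by side. The sequences are RefSeq's, on GRCm38.p6, on the strand of the gene, from 250 bases before to 50 bases after a transcript start. The windows are chr13:108653927-108654226 (plus strand, Pde4d), chr4:102421305-102421604 (plus strand, Pde4b), chr3:122728908-122729207 (plus strand, Pde5a) and chr13:95250287-95250586 (minus strand, Pde8b). In the Pde4d window the capitals, from base 184, mark AGATAA, which is bound by factors of the GATA family. In the Pde4b window the capitals, from base 217, mark the core of the cAMP response element read on the other strand. Pde4b and Pde8b have further windows that are not shown, and a Pde8b window with that core is among them. The Pde4d and Pde4b starts shown lie inside the annotated gene spans. Whether any of these starts is used in these cells was not tested.
Pde4d: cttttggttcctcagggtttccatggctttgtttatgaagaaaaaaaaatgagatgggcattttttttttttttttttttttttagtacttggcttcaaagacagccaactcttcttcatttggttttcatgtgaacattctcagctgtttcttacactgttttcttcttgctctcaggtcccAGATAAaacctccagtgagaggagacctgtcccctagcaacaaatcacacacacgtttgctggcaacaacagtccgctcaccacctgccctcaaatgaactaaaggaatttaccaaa
Pde4b: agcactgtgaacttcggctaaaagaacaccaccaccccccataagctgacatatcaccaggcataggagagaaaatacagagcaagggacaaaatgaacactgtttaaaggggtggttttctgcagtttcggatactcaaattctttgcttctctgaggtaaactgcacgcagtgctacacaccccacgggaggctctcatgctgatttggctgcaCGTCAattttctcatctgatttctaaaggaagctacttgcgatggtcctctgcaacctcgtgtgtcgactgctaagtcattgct
Pde5a: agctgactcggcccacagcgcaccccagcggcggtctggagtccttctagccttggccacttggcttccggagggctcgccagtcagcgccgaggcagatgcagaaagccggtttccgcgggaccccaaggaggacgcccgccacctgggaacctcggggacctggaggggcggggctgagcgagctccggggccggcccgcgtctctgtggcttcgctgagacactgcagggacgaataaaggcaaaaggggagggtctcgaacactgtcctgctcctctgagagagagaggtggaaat
Pde8b: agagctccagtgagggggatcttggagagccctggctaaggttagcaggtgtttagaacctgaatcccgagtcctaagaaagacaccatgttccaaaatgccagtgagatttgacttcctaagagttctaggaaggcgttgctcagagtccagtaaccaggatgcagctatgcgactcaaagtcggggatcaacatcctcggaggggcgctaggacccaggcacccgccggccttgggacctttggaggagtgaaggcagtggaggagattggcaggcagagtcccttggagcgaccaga

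Windows were matched for 8 of the 10 genes, 21 windows in all, and Pde3a and Pde3b had none. On either strand, the full cAMP response element TGACGTCA lay in 0 of the 21 windows and in 1.80% of all 32534 windows. Its core TGACG, which is also part of that longer motif, lay in 3 windows (of Pde1a, Pde4b and Pde8b) and in 20.9% of all windows. AGATAA lay in 1 window, that of Pde4d, and in 11.2% of all windows. CATTCC, the M-CAT motif of TEAD factors, lay in 2 windows of Pde1a and in 14.6% of all windows. The MEF2 box and the CArG box, searched by their consensus, lay in none of the 21 and in 0.559% and 1.64% of all windows. A match or its absence in such a window describes the letters there and shows no binding.

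The genes themselves are long. On GRCm38, Pde4d (ENSMUSG00000021699, chr13:108449948-109953461, plus strand) spans 1504 kb and has 20 annotated transcripts. Pde4b (ENSMUSG00000028525, chr4:102087543-102607259, plus strand) spans 519.7 kb and Pde1c (ENSMUSG00000004347, chr6:56069804-56569103, minus strand) 499.3 kb, while Pde3b (ENSMUSG00000030671, chr7:114415281-114539251, plus strand) is the shortest at 124.0 kb. The sources used here do not give whether counting used strand or intronic reads. Levels are therefore compared between cell classes for 1 gene at a time. Pde3a, Pde8b and Pde10a each overlap a gene on the opposite strand (Gm28523, Gm16243 and Gm17087), so part of their counts is uncertain.

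Library 1 held 12736 barcodes and 57982200 UMIs (unique transcript tags), and library 2 held 9447 barcodes and 50199793 UMIs, with 17 barcode sequences in both. After filtering 20387 cells in 29 clusters were kept, and clusters were called "X-like" by marker transcripts. In all, 8 classes had at least 50 cells in both libraries: cardiomyocyte-like (7721 and 2262 cells in libraries 1 and 2), fibroblast-like (1048 and 2441), endothelial-like (535 and 935), endocardial-like (134 and 1006), pericyte-like (363 and 415), epicardial or mesothelial-like (68 and 621), macrophage-like (270 and 522) and lymphatic endothelial-like (51 and 194). Among the rest, 304 cells of library 1 and 0 of library 2 were named by hepatocyte markers, which belong to another tissue. Erythroid-like cells numbered 212 and 42, and 856 and 67 cells stayed unnamed, those of library 1 with a median of 573 UMIs. None of these entered the 8 classes. Different clusters held most cardiomyocyte-like cells of each library, clusters 0 and 1 in library 1 and cluster 2 in library 2. Mitochondrial transcripts were a median of 0.339% and 0.229% of counts per barcode, and whether barcodes hold whole cells or nuclei was not tested. The labels describe a CD45 selection step, and the macrophage-like class made up 2.30% of cells in library 1 and 6.02% in library 2. Cardiomyocyte-like cells made up 65.9% and 26.1%, and whether the step enriched CD45-positive cells was not tested. The 12 cardiomyocyte marker transcripts were also counted in every other class, at 15.3% to 36.1% of their summed cardiomyocyte-like level in library 1 and 3.69% to 14.7% in library 2. This background moves with several results below, and its values are given beside them.

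Levels are CPM, the UMIs of a gene per 1000000 UMIs, both summed over the cells of a class and library. Of the 10 genes, 9 had a highest class that lay above the next one in both libraries, and the exception was Pde7b. Over all 13758 genes tested by class, 47.7% had such a clear highest class. Since the genes were picked for such patterns, the 2 counts are set side by side and nothing is read from them. Of the 70 neighbouring pairs in the orders of levels, 39 overlapped between libraries.

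**Figure D1:**
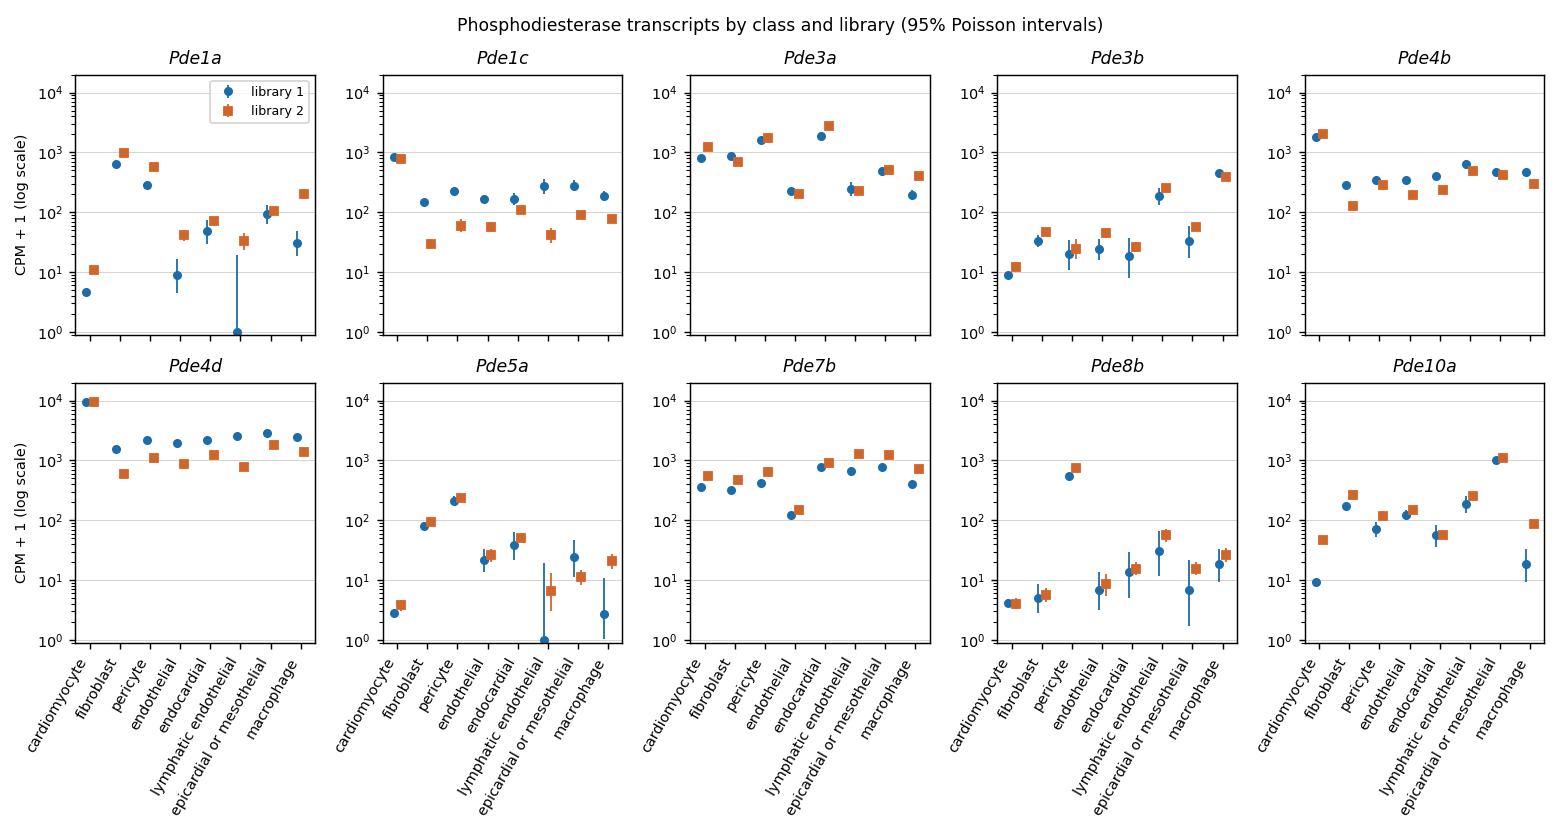
Level of each of the 10 genes (CPM + 1, log scale) in the 8 classes, with circles for library 1, squares for library 2 and bars for 95% Poisson intervals. Pde4d, Pde4b and Pde1c are highest in cardiomyocyte-like cells, Pde5a and Pde8b in pericyte-like cells, Pde1a in fibroblast-like, Pde3a in endocardial-like, Pde10a in epicardial or mesothelial-like and Pde3b in macrophage-like cells, while the highest classes of Pde7b overlap.

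Among the cAMP-specific enzymes, Pde4d, which in the heart is found with the ryanodine receptor and beta-adrenergic receptors, had 9461 CPM (95% Poisson interval 9432 to 9490) in cardiomyocyte-like cells of the first library and 9561 CPM (9517 to 9604) in those of the second, which average 9511 ± 70.4 (SD, n = 2). In the other 7 classes it lay between 1546 and 2882 CPM in library 1 and between 604 and 1810 CPM in library 2. The classes did not overlap: the lowest cardiomyocyte-like value was over every other value. The mean was 4.05 times that of the next class, epicardial or mesothelial-like cells. Cells were also thinned to 1000 UMIs, and shallower cells were left out of these shares. Left out were 243 and 14 cardiomyocyte-like, 62 and 16 pericyte-like and 47 and 27 endothelial-like cells. Of the thinned cardiomyocyte-like cells 99.2% and 98.6% still had a Pde4d UMI. The other classes had one in 73.5% to 84.0% of cells in library 1 and 38.3% to 59.3% in library 2. Unthinned, the cardiomyocyte-like share was 99.8% in both libraries.

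Pde4b, the second cAMP-specific member of the PDE4 family here, had 1797 and 2025 CPM in cardiomyocyte-like cells. The next class was lymphatic endothelial-like with 629 and 486 CPM, and fibroblast-like cells were lowest with 284 and 125 CPM. The cardiomyocyte-like mean was 3.43 times that of lymphatic endothelial-like cells. Pde1c, the calcium-activated isoform best known from cardiac and cycling smooth muscle, had 852 and 770 CPM in cardiomyocyte-like cells and at most 278 and 106 CPM in any other class. Its cardiomyocyte-like mean was 4.43 times the next. In cardiomyocyte-like cells the libraries differed little, by -0.15 (log2(CPM + 1), library 2 minus library 1) for Pde1c.

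In the other 7 classes all 3 genes were lower in library 2 than in library 1, by 0.21 to 2.71 on the log2(CPM + 1) scale, as were the cardiomyocyte marker transcripts. Pde1c stood at 17.2% to 32.6% of its cardiomyocyte-like level in the other classes of library 1 and at 3.77% to 13.8% in library 2. In 1 of 7 classes of library 2, endocardial-like cells, the lower bound of its interval lay above the marker transcripts' own percentage (13.8% against 5.52%), and in 2 of 7 classes of library 1. Pde4b lay above it in 7 of 7 classes of library 2 and in 1 of 7 of library 1. Its clearest case was the lymphatic endothelial-like class of library 2, with 24.0% of the cardiomyocyte-like level beside 4.75% for the markers. Pde4d lay above it in 6 of 7 classes of library 2 and in 3 of 7 of library 1. How far this background sets the low levels of the 3 genes was not tested beyond these percentages.

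**Figure D2:**
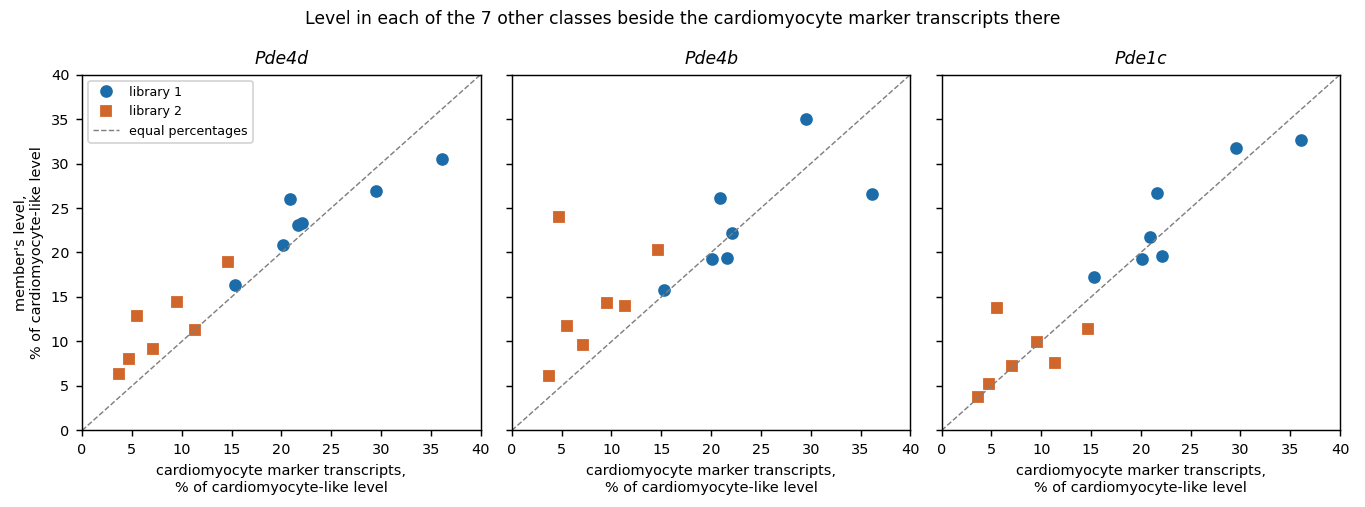
Level of Pde4d, Pde4b and Pde1c in each of the 7 other classes (y axis, % of the cardiomyocyte-like level) against the summed cardiomyocyte marker transcripts there (x axis, %), with circles for library 1, squares for library 2 and a dashed line of equal percentages. Pde1c points lie near the line except endocardial-like cells of library 2 (13.8% against 5.52%), and Pde4b points of library 2 lie above it.

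Within the cardiomyocyte-like class Pde4d varied by cluster. Cluster 6 (886 and 55 cells), whose 10 leading genes include Pde4d itself beside Angpt1 and Sema3a, had 12365 and 12836 CPM. Cluster 0 had 8780 and 8568 CPM. Cluster 6 was higher than cluster 0 in both libraries, and its Pde7b level was too, at 504 and 1085 CPM against 335 and 483 CPM. The atrial cluster (80 cells of library 1, and 7 of library 2) had 2523 CPM of Pde4d and 1132 CPM of Pde4b in library 1, both below every other cardiomyocyte-like cluster. Its Pde1c level was 474 CPM and its Pde7b level 124 CPM. The cluster was named by its atrial marker transcripts.

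**Figure D3:**
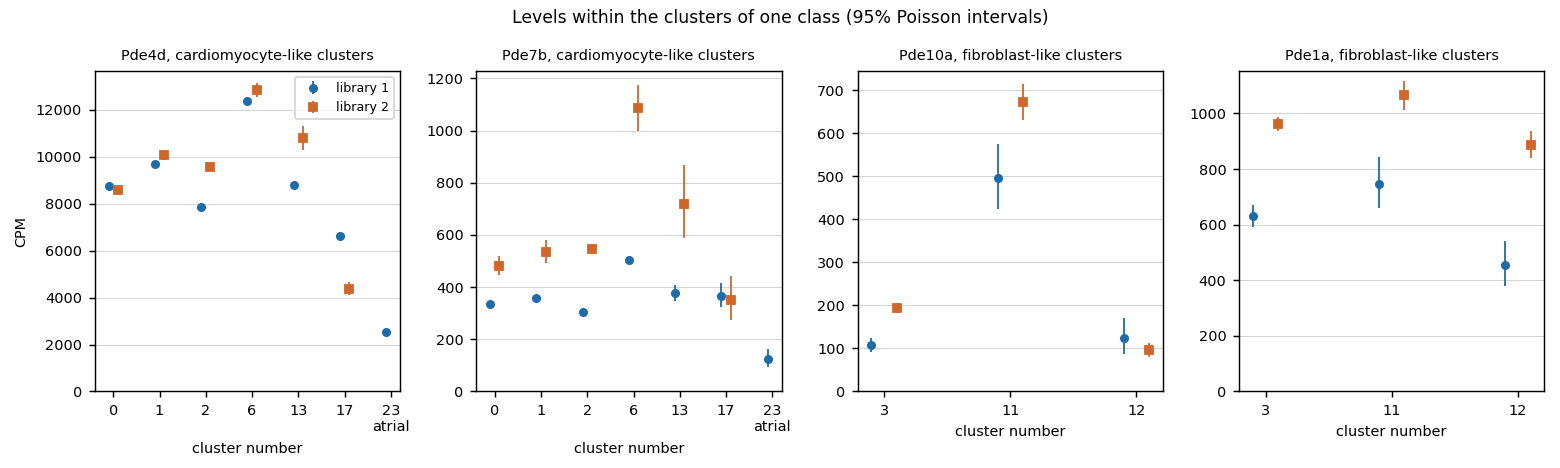
Levels (CPM) of Pde4d and Pde7b in the cardiomyocyte-like clusters and of Pde10a and Pde1a in the fibroblast-like clusters, with circles for library 1, squares for library 2 and bars for 95% Poisson intervals, for clusters with at least 15 cells in the library. Pde4d is highest in cluster 6 (12365 and 12836 CPM) and lowest in the atrial cluster (2523 CPM in library 1), and Pde10a is highest in fibroblast-like cluster 11 (496 and 672 CPM).

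Of the cGMP-inhibited PDE3 enzymes, Pde3a is the main isoform of cardiac muscle and vascular smooth muscle and the target of milrinone. Among the compared classes it was highest in endocardial-like cells with 1843 and 2728 CPM. Pericyte-like cells followed with 1600 and 1708 CPM. Cardiomyocyte-like cells had 819 and 1235 CPM and fibroblast-like cells 882 and 695 CPM, which overlap. Endothelial-like cells, with 223 and 197 CPM, were lowest by mean and overlapped macrophage-like cells (192 and 397 CPM). The endocardial-like mean was 2286 ± 626 (SD, n = 2). After thinning to 1000 UMIs the mean share of cells with a Pde3a UMI was nearly equal in endocardial-like cells (67.9% and 82.0%) and pericyte-like cells (76.4% and 73.7%). Within the endothelial-like class, cluster 24, which is led by Sema3g and Gja5, had 666 and 754 CPM, against 179 and 121 CPM in cluster 4.

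Pde3b, the isoform best known from fat cells, liver and insulin signalling, was highest in macrophage-like cells with 449 and 380 CPM. Lymphatic endothelial-like cells had 187 and 250 CPM, and the other 6 classes lay between 7.77 and 55.1 CPM. The macrophage-like mean was 1.90 times that of lymphatic endothelial-like cells, which in turn was 5.01 times the next. Thinned to 1000 UMIs, 30.2% and 30.6% of macrophage-like cells had a UMI, against 8.0% and 14.0% of lymphatic endothelial-like, 1.64% and 3.52% of endothelial-like and 0.816% and 1.69% of cardiomyocyte-like cells.

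Pde5a, the cGMP-specific enzyme that sildenafil inhibits, was highest among the compared classes in pericyte-like cells, with 213 CPM (interval 178 to 252) and 236 CPM (208 to 266). Fibroblast-like cells had 78.8 and 91.3 CPM, and the pericyte-like mean was 2.64 times theirs. Cardiomyocyte-like cells had 1.79 and 2.80 CPM. In library 1, 0 Pde5a UMIs were counted in lymphatic endothelial-like cells, which allows a level of up to 14.7 CPM. Pericyte markers in fibroblast-like cells stood at 3.08% and 2.12% of their own level, below Pde5a's 37.0% and 38.7%.

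Pde8b, a cAMP-specific enzyme known from the adrenal cortex and thyroid, took the largest share of its summed class means in 1 class among the 10 genes. Pericyte-like cells had 553 and 745 CPM, and their mean was 86.4% of that sum. Lymphatic endothelial-like cells came next with 29.5 and 55.5 CPM, and the ratio of the means was 15.3. In cardiomyocyte-like cells 3.20 and 3.06 CPM were counted. Thinned to 1000 UMIs, 35.2% and 39.6% of pericyte-like cells had a UMI, against at most 5.18% in any other class.

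Smooth muscle-like cells, the other mural class, were too few to enter the order, with 85 and 22 cells. They had 243 and 329 CPM of Pde5a, above pericyte-like cells in both libraries. Their Pde3a level was 1620 and 3512 CPM, below endocardial-like cells (1843 CPM) in library 1 and above them (2728 CPM) in library 2. Their Pde1a level was 341 and 1043 CPM. Their Pde8b count was 4 and 2 UMIs (14.1 and 27.4 CPM), against 553 and 745 CPM in pericyte-like cells. Pde8b was thus low in this mural class, where Pde5a and Pde3a were high.

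Pde1a, the calcium-activated isoform with a preference for cGMP, was highest in fibroblast-like cells with 627 and 967 CPM. Pericyte-like cells had 288 and 565 CPM, below them in each library. Macrophage-like cells had 29.9 and 197 CPM and differed between libraries. Of the macrophage-like clusters of library 2, cluster 19 had 366 CPM and cluster 10 had 21.7 CPM. Cluster 19, with 146 of its 161 cells in library 2, had a median of 5275 UMIs, against 2157 UMIs in cluster 10. Whether cluster 19 holds doublets was not tested further. Fibroblast markers in macrophage-like cells of library 2 stood at 14.3% of their own level, beside 20.4% for Pde1a. Cardiomyocyte-like cells had 3.68 and 9.92 CPM, and were the lowest class for Pde1a by mean, as they were the highest for Pde1c.

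Pde10a, the dual-substrate enzyme best known from striatal neurons, was highest in epicardial or mesothelial-like cells with 1027 and 1117 CPM, a mean of 1072 ± 63.4 (SD, n = 2). Next and overlapping were the lymphatic endothelial-like class (187 and 251 CPM) and the fibroblast-like class (170 and 266 CPM). Among the fibroblast-like clusters, cluster 11, led by Pi16 and Cd248, had 496 and 672 CPM, against 108 and 195 CPM in cluster 3 and 124 and 95.9 CPM in cluster 12. Cluster 11 was thus the highest fibroblast-like cluster in both libraries. In cardiomyocyte-like cells Pde10a had 8.19 CPM in library 1 and 45.8 CPM in library 2, a difference of 2.35 (log2(CPM + 1), library 2 minus library 1). This was its widest difference between libraries in the 8 classes.

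Pde7b, a cAMP-specific enzyme insensitive to rolipram, had no single highest class. Epicardial or mesothelial-like cells had 772 and 1237 CPM, lymphatic endothelial-like cells 663 and 1305 CPM and endocardial-like cells 784 and 913 CPM. These 3 classes overlapped. Endothelial-like cells were lowest with 120 and 150 CPM, clear of every other class in both libraries. As with Pde3a, the endocardial-like level lay above the endothelial-like one.

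Summed over all 25 genes listed by phosphodiesterase symbol, the family took 13766 and 14608 CPM in cardiomyocyte-like cells and 2578 to 6592 CPM in the other classes. The 10 genes made up 96.8% and 97.3% of the family's UMIs in cardiomyocyte-like cells and 67.7% to 95.05% elsewhere, with endothelial-like cells at 76.6% and 67.7%. These are sums of UMIs with no correction for gene length, in which Pde4d alone made up 68.7% and 65.4% of the cardiomyocyte-like sum, so they do not rank the genes.

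Genes with the most similar pattern over the 16 class and library sums were found by Pearson's r of log2(CPM + 1), which reflects shared classes, libraries and depth and carries no p. Pde4d was closest to Palld (0.99), Txlnb and Fhl2 (0.99 each), and Pde1c to Txlnb, Fhl2 and Corin (0.98, 0.98 and 0.97). Pde4b was closest to Fgf13 (0.97), Kcng2 (0.96) and Pla2g4e (0.95). Genes close to Pde8b included Serpini1 (0.94) and Lims1 (0.92), and Pde5a was closest to Nfatc4 (0.95), Klhdc8b and Ppp1r14a. For Pde1a the genes were Col6a3, Col6a2 (0.95 each) and C1qtnf2, for Pde3b Kif20b (0.99), Bmp2k and A630001G21Rik, and for Pde10a S100a6, Phlpp2 (0.92 each) and Aebp1. Pde3a (Astn2, 0.90, Slco1c1 and Gm28523) and Pde7b (Sil1, 0.88, Uhrf1bp1l and Rbm3) had looser matches, and Gm28523 overlaps Pde3a on the opposite strand.

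The other genes of cyclic nucleotide signalling were tested with edgeR's quasi-likelihood test, each class against the mean of the other 7, with Benjamini-Hochberg adjustment over all 13758 genes. Genes were called where the adjusted p was below 0.05 and the difference 2-fold or more. Of 80 listed genes, 65 could be tested. In cardiomyocyte-like cells 16 of 65 rose (24.6%, beside 19.0% of all genes) and 19 fell (29.2%, beside 21.1%), with a median log2 difference of -0.14 against 0.06 over all genes. Pericyte-like cells had 23 higher and 6 lower, at 35.4% and 9.23%, beside 8.05% and 6.21% of all genes, with a median of 0.28 against -0.08. Fibroblast-like cells had 12 higher and 16 lower (beside 10.6% and 9.20% of all genes), and endothelial-like cells 12 of each (10.3% and 7.36%). In the lymphatic endothelial-like class 10 were higher and 8 lower (9.21% and 5.11%), and in epicardial or mesothelial-like cells 10 and 5 (13.7% and 5.17%). Endocardial-like cells had 8 higher and 6 lower (8.42% and 4.05%), and macrophage-like cells 6 and 9 (12.2% and 6.10%). TMM scaling places cardiomyocyte-like sums lower in effective depth: with library totals the median of all genes in that contrast was -0.53 in place of 0.06, and 12 of the listed genes were called higher and 25 lower. In macrophage-like cells library totals gave 8 higher and 5 lower. The contrast averages log2 levels over the other classes, so a gene that is very high in 1 of them can be called higher in a class whose CPM is below the mean of the rest. The shares of all genes given here also stand beside the counts of each list below, which held 4 to 13 tested genes.

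Of the 15 other phosphodiesterases 11 could be tested. In cardiomyocyte-like cells 3 rose and 4 fell. Pde6a, a catalytic subunit of the photoreceptor enzyme, had 21.8 and 14.1 CPM there, against a mean of 3.25 CPM in the other classes (log2 difference 3.29, SE 0.20, edgeR adjusted p = 6.6e-10). Pde4a had 94.2 and 78.4 CPM against 41.5 (1.87), and Pde7a 211 and 186 CPM against 101 (1.65). Pde9a, which is specific for cGMP, had 0.644 and 0.883 CPM against 28.4 (-3.91, and -3.00 without library 2), and Pde1b, Pde8a and Pde6h also fell (-3.09, -1.39 and -1.34). The Pde1b value was -0.73 without library 2. With library totals in place of TMM, all 7 kept their direction.

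The largest difference of these genes in any class was that of Pde4c, a further cAMP-specific enzyme, in pericyte-like cells. It had 227 and 140 CPM there, against a mean of 3.14 CPM in the other classes (log2 difference 6.18, SE 0.29, edgeR adjusted p = 5.6e-11, and 8.96 without library 2). Smooth muscle-like cells had 21.1 and 68.6 CPM of Pde4c, from 6 and 5 UMIs. Pde2a, which cGMP stimulates to cleave cAMP, rose in endothelial-like cells, with 469 and 355 CPM against 41.8 (3.58, adjusted p = 6.4e-12), and in endocardial-like cells (1.19), and fell in fibroblast-like cells (-3.19) and epicardial or mesothelial-like cells (-1.50). Pde8a rose in endothelial-like (1.42) and lymphatic endothelial-like cells (1.54).

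Pde9a was highest in fibroblast-like cells, with 67.1 and 78.6 CPM against 18.1 (2.91, and 4.09 without library 2). It also rose in endocardial-like (2.03), endothelial-like (1.77) and pericyte-like cells (1.58), and without library 2 these were 3.09, 2.58 and 3.25. Its fall in epicardial or mesothelial-like cells (-1.65) turned to 0.72 without library 2. Pde1b, a calcium-activated isoform, rose in macrophage-like cells, with 31.7 and 28.9 CPM against 4.25 (3.88, and 6.57 without library 2), in pericyte-like cells (3.13, and 2.42 and 6.26 without library 1 and library 2) and in lymphatic endothelial-like cells (2.12, and 3.41 without library 2). Pde6h rose in pericyte-like cells (2.54).

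Further calls rest on few counts. Pde4c rose in endothelial-like cells (1.75, and 3.85 without library 2), where 9.90 and 12.1 CPM lay below the mean of 27.8 CPM in the other classes, which pericyte-like cells raise, and Pde6a fell there (-1.62, and -2.41 without library 2). In fibroblast-like cells Pde1b, Pde4c, Pde6a and Pde6h fell (-1.57, -2.31, -1.06 and -1.29), with values between -0.39 and -0.12 without library 2. In lymphatic endothelial-like cells Pde4a fell (-1.87), and Pde9a fell (-2.43) with 0 UMIs in library 1. DESeq2 did not call Pde4c or Pde6a in endothelial-like cells or Pde6a in fibroblast-like cells. Without the library block, Pde6a in both classes, Pde1b and Pde6h in fibroblast-like cells and Pde9a in epicardial or mesothelial-like cells were not called either. At the finer clustering (resolution 2), Pde2a in endocardial-like, Pde6h in fibroblast-like and Pde9a in lymphatic endothelial-like cells were not called. Pde6d and Pde12 passed the test in no class, at 30.7 to 73.7 CPM and 1.76 to 9.41 CPM. Pde6b, Pde6c, Pde6g and Pde11a were too low to test, at up to 11.7 CPM in any of the 8 classes.

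**Figure D4:**
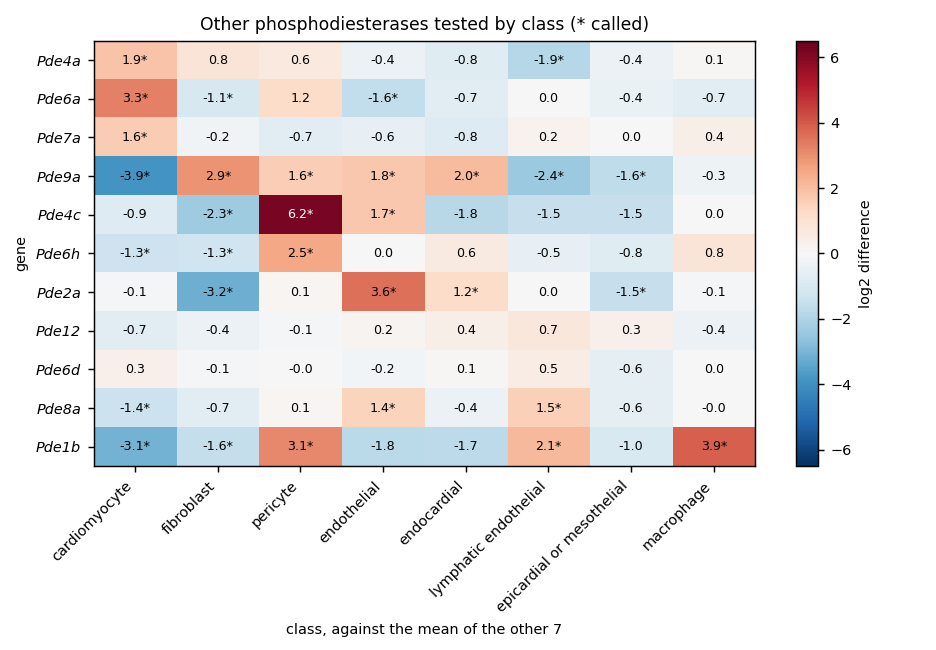
Log2 difference of the 11 other phosphodiesterases tested in each class against the mean of the other 7 (colour and number), with an asterisk where the edgeR adjusted p was below 0.05 and the difference 2-fold or more. Pde6a, Pde4a and Pde7a are called higher in cardiomyocyte-like cells, Pde4c in pericyte-like (6.18) and Pde2a in endothelial-like cells (3.58).

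Of the cAMP-making adenylyl cyclases, 3 of 7 rose and 4 fell in cardiomyocyte-like cells. Adcy5, a main cardiac isoform, had 123 and 104 CPM there, against a mean of 34.4 CPM in the other classes (log2 difference 3.07, SE 0.28, edgeR adjusted p = 5.2e-08). Adcy4 (0.943 and 1.04 CPM against 60.3) and Adcy2 (0.920 and 0.779 CPM against 17.0) fell, by 4.37 and 2.64 on the log2 scale. Without library 1 the Adcy5 value was 4.58, without library 2 it was 2.41, and that of Adcy2 was -0.60 without library 2. Elsewhere Adcy4 rose in endocardial-like cells (192 and 131 CPM, 3.28, and 3.92 without library 2), Adcy2 in epicardial or mesothelial-like cells (46.8 and 45.5 CPM, 3.02, and 5.30 without library 2) and Adcy7 in macrophage-like cells (363 and 243 CPM, 4.66, and 7.37 without library 2).

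Guanylyl cyclases, which make cGMP, fell in cardiomyocyte-like cells for 4 of the 5 tested and rose for 0, with a list median of -3.78. Npr1, the receptor of atrial natriuretic peptide, had 0.713 and 1.40 CPM against 45.1 (log2 difference -4.27, SE 0.36, edgeR adjusted p = 2.2e-08). Gucy1a1 had 2.55 and 3.01 CPM against 134 (-4.03), and Gucy1b1 2.48 and 3.01 CPM against 158 (-3.78). These 2 encode the nitric oxide receptor. Without library 2 the Npr1 value was -3.54. In pericyte-like cells 3 of the 5 rose and 2 fell, with a list median of 4.21.

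Protein kinase G and its substrates carry the cGMP signal. Of 4 tested cGMP kinases and substrates, 4 rose in pericyte-like cells, where Irag1, a protein kinase G substrate on the calcium store, had 1128 and 1048 CPM against 20.3 (log2 difference 6.70, SE 0.13, edgeR adjusted p = 1.4e-15, and 7.51 without library 2). In cardiomyocyte-like cells 0 of 4 rose and 1 fell: Irag1 had 2.97 and 2.54 CPM (-2.48, and -1.77 without library 2). Irag1 had 0 and 1 UMIs in lymphatic endothelial-like cells and Prkg2 0 UMIs in endothelial-like cells of both libraries, and both were called lower, with upper limits for Prkg2 of 2.97 and 1.25 CPM against a mean of 3.41 CPM in the other classes. With doublets kept Prkg2 was not called (-0.85).

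Other effectors of cAMP and its transporters were tested for 10 genes, of which 4 rose in cardiomyocyte-like cells and 1 fell. Popdc3 (68.0 and 66.6 CPM against 10.7, log2 difference 3.85, SE 0.24, edgeR adjusted p = 7.4e-10) and Bves (88.5 and 93.9 CPM against 13.2, 3.67) encode Popeye proteins, which bind cAMP in striated muscle. Rapgef3, which encodes Epac1, had 1.38 and 1.71 CPM against 84.8 (-4.16), and rose in endothelial-like cells (259 and 265 CPM, 3.69) and endocardial-like cells (134 CPM in both, 2.55). Without library 1 the values of Popdc3 and Bves were 4.86 and 4.21, and without library 2 they were 2.58 and 2.85. Without library 2 those of Rapgef3 in the 3 classes were -2.90, 5.26 and 4.07.

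Anchoring proteins hold kinases and phosphodiesterases at particular sites. In cardiomyocyte-like cells 3 of 13 rose (23.1%, beside 19.0% of all genes) and 1 fell (7.69%, beside 21.1%). Pde4dip, which encodes the PDE4D-interacting protein myomegalin, had 3129 and 2690 CPM against 465 (log2 difference 3.56, SE 0.19, edgeR adjusted p = 1.9e-10). Akap6, the nuclear envelope and ryanodine receptor anchor mAKAP that binds PDE4D3, had 1812 and 2108 CPM against 344 (3.52). Akap12 fell, with 5.89 and 6.60 CPM against 128 (-3.48). Without library 1 the values of Pde4dip and Akap6 were 4.09 and 4.15, and without library 2 they were 2.74 and 2.51. In other classes Ezr rose in epicardial or mesothelial-like cells (679 and 671 CPM, 4.46), Sphkap in fibroblast-like cells (21.0 and 29.8 CPM, 5.22), and Akap2 was called lower in macrophage-like cells, with 0 UMIs in both libraries, which allow up to 5.28 and 1.33 CPM, against a mean of 4.37 CPM in the other classes.

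Protein kinase A is the main cAMP effector, and G proteins pass receptor signals to adenylyl cyclase. Of 9 protein kinase A genes, 3 rose and 2 fell in cardiomyocyte-like cells, among them the catalytic subunit Prkaca (49.1 and 43.2 CPM against 31.2, log2 difference 1.25, SE 0.15, edgeR adjusted p = 1.0e-06), the inhibitor Pkia (215 and 180 CPM against 115, 1.55) and the regulatory subunit Prkar2b (1.72 and 1.77 CPM against 17.0, -2.30). With library totals Prkaca and Pkia missed the 2-fold limit, at 0.66 and 0.95, and with doublets kept Prkaca did at 0.96. Of 6 G protein genes, Gnai2 (19.6 and 21.8 CPM against 115, -1.72) and Gnai1 (4.71 and 9.35 CPM against 35.9, -1.45) fell and 0 rose. The Gnai1 value was -2.21 without library 2. Gnao1 rose in fibroblast-like cells (356 and 357 CPM, 3.54). Pkib rose in lymphatic endothelial-like cells (9.82 and 9.41 CPM, 3.64, and 4.63 without library 2), from 2 UMIs in library 1.

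The table has a feature named GFP, and the labels do not say what carried it. A GFP UMI was counted in 17.6% of cardiomyocyte-like cells of library 1 (95% Clopper-Pearson interval 16.8 to 18.5) and 22.8% of library 2 (21.1 to 24.6), where cells had medians of 4706 and 7357 UMIs. Fibroblast-like cells, with medians of 1909 and 3102 UMIs, had one in 0.573% and 0.574% of cells. Cells with a GFP UMI were deeper than those without, so 1359 and 516 of them were paired with as many GFP-negative cells. Each was paired with the unused cell nearest in UMIs other than GFP (medians 6663 and 9849 in both arms). Over the genes tested, GFP-positive cells still summed to more UMIs, with 10900818 against 10594692 in library 1 and 5698096 against 5592235 in library 2. A cell without a GFP UMI may still carry the transcript.

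Pde4d had 9321 and 9545 CPM in GFP-positive cells of libraries 1 and 2, against 9944 and 9993 CPM in GFP-negative cells. Pde4b had 1794 and 1865 CPM in GFP-positive cells, against 1880 and 2159 CPM in GFP-negative cells. Both genes were a little lower with GFP in each library, with mean log2 ratios of GFP-positive over GFP-negative cells of -0.08 ± 0.02 and -0.14 ± 0.10 (SD, n = 2). Without matching on depth the fitted Pde4d value was 0.01. Pde3a had 809 and 1173 CPM in GFP-positive cells, against 868 and 1303 CPM in GFP-negative cells. Pde7b had 339.7 and 509 CPM in GFP-positive cells, against 369 and 594 CPM in GFP-negative cells. These 4 genes were lower in GFP-positive cells of both libraries, by log2 ratios between -0.22 and -0.07. Counting intervals of such ratios cover counting error only, and UMIs of 1 cell are not independent. Pairing was on depth and not on cluster. Cluster 6, higher in Pde4d and Pde7b than cluster 0, held 177 GFP-positive and 233 GFP-negative cells of library 1. In library 2 it held 12 and 13. The atrial cluster held 7 and 17 cells of library 1, and 0 and 1 of library 2. With matching within cluster the fitted values of these 4 genes kept their direction. How far this cluster mix sets the size of the differences was not tested.

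Pde10a had 8.42 and 61.5 CPM in GFP-positive cells, against 7.53 and 33.6 CPM in GFP-negative cells. It was the 1 gene higher with GFP in both libraries, by 0.16 (interval -0.29 to 0.61) in library 1 and 0.87 (0.61 to 1.14) in library 2. Pde1c had 889 and 780 CPM in GFP-positive cells, against 875 and 823 CPM in GFP-negative cells, and its sign differed between libraries. Pde1a, Pde3b, Pde5a and Pde8b were low in both arms (0.732 to 11.8 CPM).

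Of the 10 genes, 7 were lower in GFP-positive cells in both libraries and 1 higher, beside 26.3% lower and 32.2% higher among 14063 genes with at least 20 UMIs. The contrast helped to choose the genes, so nothing is read from these counts. Over those genes the median log2 ratio was 0.00 and 0.04. In the edgeR fit of the same pairs, which has 1 residual degree of freedom, 7 of 12963 genes were called higher (0.054%) and 32 lower (0.247%). Of 64 tested genes of the pathway lists 0 rose and 1 fell, with 14 at an unadjusted p under 0.05, beside 1584 of all 12963 genes. DESeq2, the fit without library block, matching within cluster and a minimum of 2 GFP UMIs called 0 of them lower. The 1 gene was Adcy8, with 0.824 and 2.28 CPM in GFP-positive cells, against a mean of 3.47 CPM in GFP-negative cells (-1.37, SE 0.40, edgeR adjusted p = 0.0273, and -0.76 and -1.95 without library 1 and library 2).

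**Figure D5:**
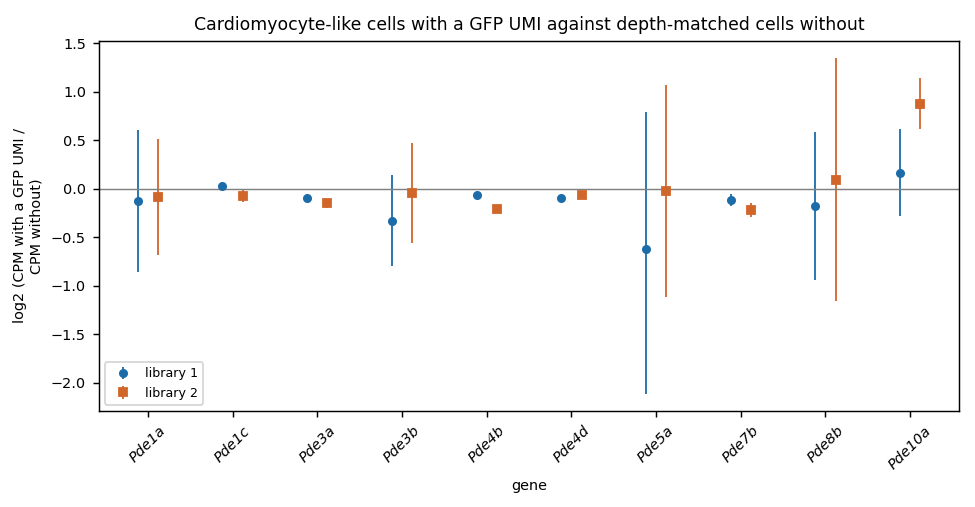
Log2 ratio of the CPM in cardiomyocyte-like cells with a GFP UMI over that in depth-matched cells without, for the 10 genes, with circles for library 1, squares for library 2 and bars for 95% counting intervals. Pde10a lies at 0.16 and 0.87, and Pde3a, Pde4b, Pde4d and Pde7b lie slightly below 0 in both libraries.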

How the data were processed

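Single-cell 3' v3 libraries of frozen right ventricle were digested with collagenase and enriched for CD45-positive cells, per the labels' protocols. The authors deposited UMI counts that are not normalized, which per the file headers came from Cell Ranger 6.0.0. Further tools that the submitters' processing notes list, with no roles, are Seurat, edgeR, Trimmomatic and fastp, and the build is GRCm38 (mm10). Barcode suffixes 1 and 2 were taken as the samples whose titles end so. Members and lists were chosen with earlier results of these data known.

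Cells needed at least 500 UMIs, 200 genes and at most 25% mitochondrial counts. A doublet score from simulated doublets marked 6.77% and 6.13% of barcodes in libraries 1 and 2, although 46.0% and 49.1% of simulated doublets passed its threshold, so doublets may remain. Marked cells and clusters with at least 40% of them were removed. Leiden clustering (leidenalg 0.10.2, scanpy 1.11.5, resolution 1) used 30 components of 2000 variable genes without the members, GFP and the lists. A cluster was named by its markers, at least 3 of them 2-fold up with 20 counts each, by a scoring rule set after seeing the data, which may differ from the authors' names. Of 29 clusters 3 stayed unnamed.

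Counts summed per library and class were scaled to CPM or tested with edgeR 4.0.16 (TMM, filterByExpr, library as block) in R 4.3.3, with DESeq2 1.42.0 as an alternative. Classes of 1 library share a cell suspension, so the block pairs them. Residual degrees of freedom were 7 for the classes and the biological coefficient of variation 0.145. On simulated data with 13758 genes the class test recovered 96.0% to 100.0% of genes changed 2-fold or 4-fold, with 3.92% false among those called. Genes changed exactly 2-fold can miss the 2-fold limit set for the calls reported here, so this recovery need not hold for those calls. The 10 members, the other phosphodiesterases tested and, by a fixed rule, the called list genes with the largest log2 difference in the same direction in both libraries are named (up to 3 per list for cardiomyocyte-like cells and 2 per other comparison). Symbols Gucy1a1, Gucy1b1 and Irag1 were matched by RefSeq synonyms. Intervals and limits for 0 UMIs (3 counts per library) cover counting error only. One gene with a pattern like that of Pde8b is not reported here.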

Additional observations from a re-analysis of the deposited data

Results flagged for a closer look

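In smooth muscle-like cells, a class too small for the order of levels (85 and 22 cells in libraries 1 and 2), Pde5a had 242.5 and 329.3 CPM, above the highest compared class in both libraries, pericyte-like cells with 213 and 236 CPM. The intervals overlap (189 to 307 CPM in smooth muscle-like and 178 to 252 CPM in pericyte-like cells of library 1), and cardiomyocyte markers stood at 30.7% and 6.15% of their own level in smooth muscle-like cells.

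In Schwann or glial-like cells (35 and 53 cells), Pde7b had 789.1 and 1593.7 CPM, above every compared class in both libraries. In library 1 the value rests on 63 UMIs, and its interval of 606 to 1010 CPM holds the endocardial-like level of 784 CPM. In library 2 the interval was 1430 to 1771 CPM, against 1305 CPM in lymphatic endothelial-like cells. Pde10a in the same cells had 125 CPM in library 1, from 10 UMIs, and 1314 CPM in library 2, from 286 UMIs. Cardiomyocyte markers stood there at 38.8% and 8.52% of their own level, and their part in these values was not tested.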

How the results depend on the processing

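All 10 members kept their highest class under DESeq2, library totals, no filter on low counts, no replicate block, resolution 0.5 or 2, doublets kept and the stricter cell filter. With either library left out 9 did, the exception being Pde7b, and 9 did by the share of cells after thinning, where Pde3a was highest in pericyte-like cells. The stricter cell filter left 49 lymphatic endothelial-like cells in library 1, under the limit of 50. That class, which overlaps the highest class of Pde7b, was therefore not compared under this filter. The number of members lower with GFP (9 of 10 in the fit) ranged from 8 with a library left out and 7 without matching to 6 of the 8 tested with at least 2 GFP UMIs. Directions that turned with GFP were Pde1c (-0.129 and 0.018 without replicate 1 and 2, 0.083 without matching, 0.034 with 3 GFP-negative cells per GFP-positive cell, 0.003 with at least 2 GFP UMIs), Pde4d (0.012 without matching), Pde1a (0.107 with matching within cluster) and Pde8b (0.037 and -0.181 without replicate 1 and 2). Pde9a in epicardial or mesothelial-like cells was -1.849 without replicate 1 and 0.718 without replicate 2.

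Among counts of called pathway genes, those without the replicate block were 2 lower in endocardial-like, 3 in epicardial or mesothelial-like and 8 in fibroblast-like cells (6, 5 and 16 with it), and 0 with GFP. It changed no other count by over 1.5 times, and the cardiomyocyte-like counts without it were 16 and 19. Resolution 2 gave 5 higher and 1 lower in endocardial-like cells, and the stricter filter 13 lower there and 5 lower in macrophage-like cells. Keeping doublets gave 5 lower in endothelial-like and 5 in macrophage-like cells, where library totals also gave 5. With GFP, DESeq2, matching within cluster and at least 2 GFP UMIs gave 0 lower, and 3 GFP-negative cells per GFP-positive cell gave 2. The cause was not tested. With either library left out no spread could be estimated, so only values were given. Of the other values of named pathway genes, 599 kept their direction and, in the settings with a test, their call, and 25 kept the direction alone. Values with a library left out are among them and carry no call. Small classes in library 1 limit depth: lymphatic endothelial-like cells there held 203647 UMIs, so 0 UMIs allow up to 14.7 CPM.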
